A study of Mus musculus with 22 samples.

Results

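Arterial smooth muscle cells from the lung were compared with those from the urinary bladder in mice. The comparison took the 3 libraries labelled lung and the 3 labelled bladder out of 22 libraries, over all genes of the deposited table. The series had sorted arterial smooth muscle cells from 7 tissues by fluorescence-activated cell sorting and sequenced their RNA to ask how these cells differ between organs. Lung and bladder cells carried the same alleles, given as Cspg4-Dre/Acta2-CreERT/R26-GFP, and every animal had received tamoxifen, the drug that activates CreERT, by injection into the abdomen on 3 days, at 0.75 mg for each 10 g of weight. In such a design the Cspg4 locus drives the Dre recombinase, the Acta2 locus drives the inducible Cre recombinase, and the Rosa26 locus carries a fluorescent reporter. Cspg4 is also active in pericytes and Acta2 in other smooth muscle and in activated fibroblasts, so the alleles alone do not limit the label to arteries. No untreated or reporter-negative cells were among the libraries. Age, sex, strain and the number of animals per library are not given in the sources used here.

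Arterial smooth muscle cells form the wall of the vessel, contract to set its width and build its elastic and collagen matrix. The pulmonary artery carries blood at low pressure, and its muscle responds to low oxygen by constricting, for which potassium channels that hold the membrane potential are central. Bladder arteries belong to the systemic circulation of the pelvis, in a wall that stretches and relaxes with filling. Muscle of different vessels has different embryonic origins, and Hox genes, transcription factors arranged in clusters, keep a record of position along the body axis.

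Values are the authors' deposited signal, meaning whole-number gene values scaled per library. Depth, rebuilt from the spacing of those values, was 6035682, 8554568 and 6671960 reads in lung 1, 2 and 3 and 8611800, 6174230 and 4389363 in bladder 1, 2 and 3. A read was worth 0.6631 to 1.3415 units of signal, so a gene at 0 in a library could have had a signal of up to 1.99 to 4.02, the worth of 3 reads. Reads carried no molecular identifiers, so these floors cover counting error only. Libraries of one tissue resembled each other more than libraries across tissues: correlations across genes of log2 signal were 0.923 to 0.954 within lung, 0.85 to 0.875 within bladder and 0.699 to 0.764 between them. Genes are not independent replicates in these correlations. Lung 2 and lung 3 held 10840 and 11999 genes with values of 1 to 9, against 4070 to 5769 in the other 4 libraries. Bladder 1 stood apart by gene length. Its median deviation from the bladder mean was 0.46 on the log2 scale for genes with at least 6000 exonic bases and -0.38 for genes under 2000 bases.

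Smooth muscle genes were present in both tissues, but Myh11 and Cspg4 were low in bladder 3. Acta2, smooth muscle alpha-actin, was at 3264, 2399 and 2732 in the lung libraries and at 2128, 2771 and 2582 in the bladder libraries. The groups overlapped, with a log2 difference of 0.16 (SE 0.19, adjusted p = 0.569, limma). Myl9, the regulatory myosin light chain, also overlapped, with 2116, 1527 and 1761 in lung and 1641, 2110 and 2529 in bladder. Acta2 and Myl9 each held at least 0.5 rebuilt reads per exonic base in some library, so their differences may be compressed. Myh11, the smooth muscle myosin heavy chain, was at 9193, 7492 and 8186 in lung and at 8695, 4531 and 1379 in bladder, so bladder 3 was far below the other 5 libraries. Cspg4, the mural cell proteoglycan NG2, was at 474, 243 and 250 in lung and at 800, 179 and 15 in bladder. Its adjusted p was 0.481 (limma), its 3 bladder values enclosed the lung values, and the sign of its difference changed between tests, from 1.22 with limma to -0.02 with edgeR on rebuilt reads.

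Markers of other cells were present in both tissues and moved with tissue. In bulk RNA, fewer cells of a type and less RNA per cell cannot be told apart. Of 14 tested lung epithelium markers 12 were higher in lung, 7 of the 14 having reached a signal of 10 in lung only, with a summed signal over the whole list of 5036 to 7024 in lung and 281 to 889 in bladder. 7 of the 18 listed lung epithelium markers, Sftpa1, Sftpb and Sftpd among them, were at 0 in all 3 bladder libraries. Of 11 tested urothelium markers 7 were higher in bladder, and 5 of the 11 had reached a signal of 10 in bladder only. The urothelium sum was 9513 in bladder 3 against 1216 and 1243 in bladder 1 and 2 and 291 to 417 in lung, and bladder 3 also had the highest pan-epithelium sum, 5883 against 325 to 1056 in the other 5 libraries. Of 18 endothelium markers 6 were higher in lung, Pecam1 and Cldn5 among them, and the sum was 7461 to 10146 in lung and 2663 to 4619 in bladder. Of 10 tested immune markers, 4 of which reached a signal of 10 in bladder only, 8 were higher in bladder, and the sum was 1430 to 1762 in lung and 3111 to 6298 in bladder. Most of the lung sum was 1 gene, Lyz2, at 1226, 1420 and 1584. Lyz2 overlapped between tissues, with 1155, 1029 and 1866 in bladder (adjusted p = 0.795, limma). Of 18 fibroblast and adventitia markers 12 were higher in bladder and 1, Npnt, in lung, where the sums were 49419 to 71897 and 22867 to 29442, and the bladder count was 7 without lung 2 and 7 without lung 3. Pericyte markers were mixed: 4 of 18 were higher in lung and 1, Anpep, in bladder, with a sum of 21709 in bladder 1 against 6237 to 13931 elsewhere. The lung count of pericyte markers was 1, 2 and 0 without lung 1, 2 and 3, and the bladder count was 4 without bladder 3. Of 14 tested markers of visceral smooth muscle, the type that forms the bladder wall, 3 were higher in lung (Chrm2, Lgr6 and Itga8) and 2 in bladder (Hand2 and Foxf1), with sums of 20689 to 24120 in lung and 9591 to 18105 in bladder. Those counts were 5 in lung without bladder 1 and 1 in bladder without any one of the lung libraries. Chrm2 reached a signal of 10 in lung only and Hand2 in bladder only. The part of these other cells in the differences between lung and bladder was not tested.

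**Figure D1:**
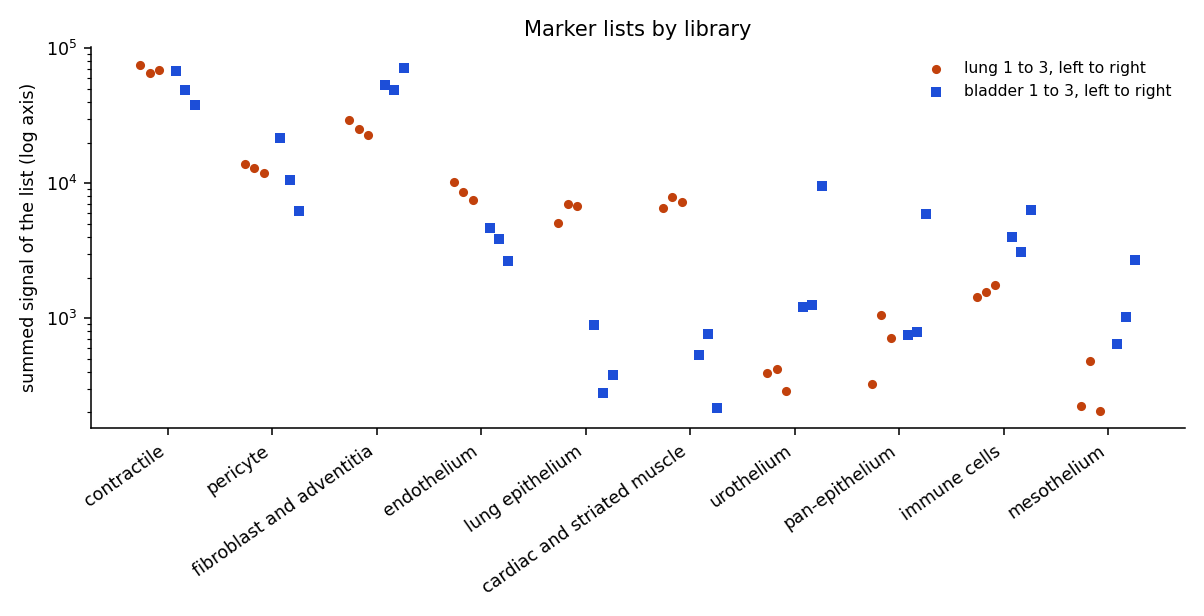
Summed signal of 10 marker lists in each of the 6 libraries, on a log axis, with lung as circles and bladder as squares, library 1 to 3 from left to right. The lung epithelium and cardiac sums separated the tissues widely, and the urothelium sum of bladder 3 (9513) stood above the other 5 libraries.

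Of 13875 genes tested with limma, 1092 (7.87%) were higher in lung and 1470 (10.6%) were higher in bladder at an adjusted p under 0.05, which is 18.5% in either direction. Counts of list members in other paragraphs stand beside these shares. The difference was at least 2-fold for 943 and 1321 of them and over 16-fold for 199 and 290. The median log2 difference of all tested genes, lung minus bladder, was 0.03. The lung libraries all lay above the bladder libraries for 21.4% of genes and all below for 19.3%. Counts depended on the lung libraries: they were 444 and 859 without lung 1, 388 and 951 without lung 2 and 361 and 718 without lung 3. In each of the 6 fits that left out a library, 311 genes stayed higher in lung and 660 in bladder. Genes were tested if they reached a signal of 10 in 3 or more libraries. A gene that reached it in 1 tissue only passed this filter through that tissue, which fixed its direction, here and in every list. Since no label states that each library is from its own animal, the p-values here reflect only how far these samples spread, and that spread may be technical.

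**Figure D2:**
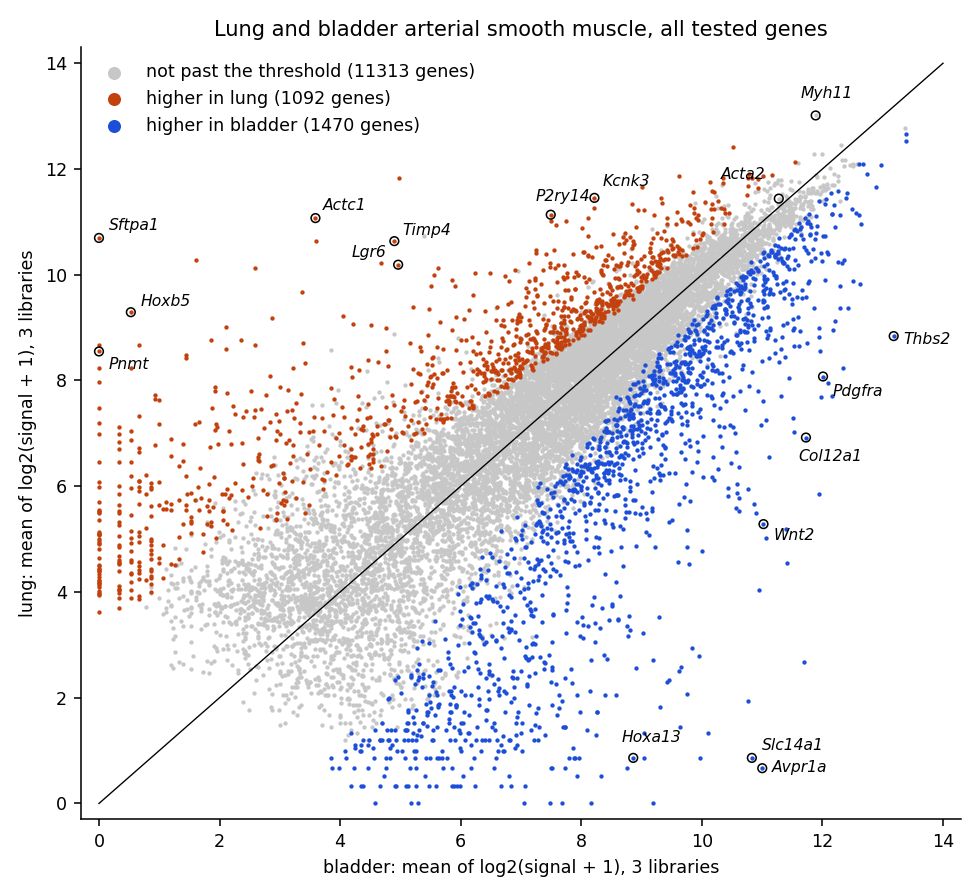
Mean of log2(signal + 1) over the 3 bladder libraries (x axis) against the 3 lung libraries (y axis) for each of 13875 tested genes, with genes past the threshold coloured by direction and the line marking equal means. Sftpa1 and Pnmt lie on the lung axis with no bladder signal, Avpr1a and Slc14a1 lie far to the right with almost none in lung, and Acta2 lies beside the line.

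Among genes at low level or absent in bladder, those farthest above it in lung were surfactant and other airway genes together with muscle, Hox and enzyme genes. Sftpa1, surfactant protein A, was at 1141, 2101 and 1899 in the lung libraries and at 0 in all 3 bladder libraries, at least 426.3-fold higher against the floor of 3 reads per library. Sftpd, Sftpb and Sftpc, surfactant proteins of the alveolar epithelium, Sec14l3, and Ager, an alveolar type I cell receptor, were also on this list, and they belong to or move with the lung epithelium sums given above. Pnmt, the enzyme that turns noradrenaline into adrenaline, was at 326, 385 and 415 in lung and 0 in all 3 bladder libraries, at least 93.4-fold higher (adjusted p = 0.000102, limma). Sost, sclerostin, a secreted Wnt inhibitor, was at 204, 381 and 350 in lung and at 2, 0 and 0 in bladder (adjusted p = 0.000392, limma). Tmem215 was at 262, 494 and 521 in lung and at 1, 1 and 0 in bladder, and Cyp2b10, a cytochrome P450, was at 196, 123 and 228 in lung and 0 in bladder. Of the 12 genes of this kind, 11 had a higher mean in lung than in any of the other 5 tissues, Sost being the exception, with a mean of 1123 in aorta.

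Muscle genes usually known from the heart were also high in lung. Actc1, cardiac alpha-actin, was at 2544, 1836 and 2129 in the lung libraries and at 37, 22 and 1 in the bladder libraries. The lowest lung value was far above the highest bladder value, and the log2 difference was 7.48 (SE 0.92, adjusted p = 0.00118, limma). Of 14 tested genes on a list of cardiac and striated muscle, which was drawn up after the data were seen, 12 were higher in lung. 3 of the 14 reached a signal of 10 in lung only, so that their direction followed from the filter on low values, and 8 further genes of the list did not reach the filter. The count was 6 without lung 2 and 6 without lung 3. Tcap, a cap protein of the titin filament, was at 1045, 1096 and 1222 in lung and at 119, 57 and 16 in bladder. Myl7, the atrial myosin light chain, was higher in lung, at 107, 367 and 156 against 0, 5 and 16 (adjusted p = 0.0084, limma). Myh6, a cardiac myosin heavy chain, was at 33, 76 and 8 in lung, and Nppa, the atrial natriuretic peptide, was at 0, 9 and 8, and neither reached the filter. The part of heart muscle cells in these values was not tested. Asb2, a ubiquitin ligase subunit of muscle, was at 1760, 2092 and 2039 in lung and at 519, 163 and 80 in bladder, and Nes, the intermediate filament nestin, was at 907, 1147 and 1080 against 186, 90 and 24.

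The genes farthest above lung in bladder were a hormone receptor, transporters and posterior Hox genes. Avpr1a, the vasopressin V1a receptor through which vasopressin constricts arteries (ENSMUSG00000020123), was at 2430, 2824 and 1254 in the bladder libraries and at 0, 1 and 1 in the lung libraries. All 3 bladder libraries held it at a high level and no lung library held more than 1 unit (adjusted p = 4.81e-05, limma). Slc14a1, a urea transporter, was at 2386, 2009 and 1254 in bladder and at 0, 1 and 2 in lung. Slc7a8, an amino acid transporter, was at 2420, 1907 and 1130 in bladder and at 0, 2 and 18 in lung. Car3, a carbonic anhydrase, was at 2469, 3353 and 4360 in bladder and at 3, 31 and 1 in lung. The same list held Mc5r, a melanocortin receptor, at 549 to 1070 in bladder and 0 to 4 in lung, and Sostdc1, a secreted BMP and Wnt antagonist, at 262 to 597 against 0 to 1. C1qa and C1qb, complement subunits made by macrophages, were at 228 to 428 and 339 to 897 in bladder and at 0 to 5 in lung, and they move with the immune sums given above. All 12 genes of this kind had a higher mean in bladder than in any of the other 5 tissues, but some margins were within the spread. The mean of Sostdc1 was 458 (SD 175) in bladder and 438 in kidney. That of Hoxa10 was 1012 (SD 135) in bladder and 928 in kidney.

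Promoter sequence is shown for 4 genes whose lung and bladder libraries lay far apart, 2 in each direction, so that the letters before their starts can be read beside their levels. The sequences are the 250 bases before the start of transcription as annotated by RefSeq (GRCm38.p6), printed 5′ to 3′ on the strand of the gene: Actc1 at chr2:114052876-114053125 on the minus strand, Timp4 at chr6:115252206-115252455 on the minus strand, Avpr1a at chr10:122448249-122448498 on the plus strand and Hoxa13 at chr6:52260881-52261130 on the minus strand. Capitals mark matches, on either strand, to the CArG box of serum response factor, to TATAAA, to GGGCGG (GC box) and to CCAAT, and no matches overlapped.
Actc1: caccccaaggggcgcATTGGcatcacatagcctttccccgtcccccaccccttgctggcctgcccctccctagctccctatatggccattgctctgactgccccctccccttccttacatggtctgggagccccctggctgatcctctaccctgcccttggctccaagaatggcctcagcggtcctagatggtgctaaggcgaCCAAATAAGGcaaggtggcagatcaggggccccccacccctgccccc
Timp4: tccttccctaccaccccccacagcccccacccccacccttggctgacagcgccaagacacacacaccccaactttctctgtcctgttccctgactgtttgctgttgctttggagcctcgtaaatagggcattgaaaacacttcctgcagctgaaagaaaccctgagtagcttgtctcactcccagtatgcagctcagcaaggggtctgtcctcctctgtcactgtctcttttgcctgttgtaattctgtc
Avpr1a: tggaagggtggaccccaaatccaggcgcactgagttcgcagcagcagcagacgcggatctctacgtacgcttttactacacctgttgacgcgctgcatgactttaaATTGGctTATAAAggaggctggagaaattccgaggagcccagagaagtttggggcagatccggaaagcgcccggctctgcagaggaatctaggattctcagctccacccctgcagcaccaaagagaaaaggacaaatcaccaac
Hoxa13: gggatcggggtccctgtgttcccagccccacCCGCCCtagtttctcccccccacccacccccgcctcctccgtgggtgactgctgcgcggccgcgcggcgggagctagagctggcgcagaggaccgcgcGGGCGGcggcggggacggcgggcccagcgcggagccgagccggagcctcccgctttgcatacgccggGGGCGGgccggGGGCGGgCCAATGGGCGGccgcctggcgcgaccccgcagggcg
The Actc1 window held a CArG box 47 to 38 bases before the start, which 1.5% of 32851 RefSeq promoter windows of the same length hold, and 1 CCAAT. The Avpr1a window held 1 TATAAA (12.4% of windows hold one) and 1 CCAAT (33.8%). The Hoxa13 window held 5 GC boxes (32.7% of windows hold at least 1) and 1 CCAAT. No match was found in the Timp4 window. Of the 40 leading genes of the comparison, 25 were matched by symbol to a window.

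The tested Hox genes are given by their place in the clusters. The filter on low values fixed the direction of many of them, so those directions cannot show a pattern by position. Of 22 genes of paralogue groups 1 to 8, which are expressed toward the head end of the embryo, 13 passed the filter on low values, of which 11 were higher in lung and 1, Hoxd8, was higher in bladder. 5 of the 13 reached a signal of 10 in lung only and Hoxd8 in bladder only, so that the filter fixed their direction. Hoxb5 was at 611, 663 and 604 in the lung libraries and at 2, 0 and 0 in the bladder libraries (adjusted p = 0.000122, limma). Hoxa5, a gene required for lung development, was at 477, 369 and 296 in lung and at 27, 19 and 35 in bladder, a log2 difference of 3.78 (SE 0.43, adjusted p = 0.000868, limma). Hoxb6 was at 465, 378 and 331 in lung and at 3, 19 and 0 in bladder. Hoxd8 was at 154, 249 and 149 in bladder and at 0, 1 and 1 in lung.

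Of 15 genes of groups 9 to 13, which mark the tail end, 8 were tested and were higher in bladder. These 8 passed the filter through the bladder libraries alone, so that their direction was fixed by it, and the other 7 did not reach it. Hoxa13, required for the hindgut and the lower urinary tract, was at 493, 628 and 323 in bladder and at 0, 1 and 2 in lung (adjusted p = 0.00021, limma). The highest mean of Hoxa13 in the other 5 tissues was 3, in kidney. Hoxa10 was at 1089, 1092 and 856 in bladder and at 0, 2 and 1 in lung, with a mean of 928 in kidney. Hoxa11 was at 839, 626 and 381 in bladder and at 0 in lung, and since the strand setting of the counting is not given, reads of its antisense partner Hoxa11os cannot be told apart from its own. Hoxd13 was at 57, 75 and 85 in bladder and at 0, 1 and 1 in lung.

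**Figure D3:**
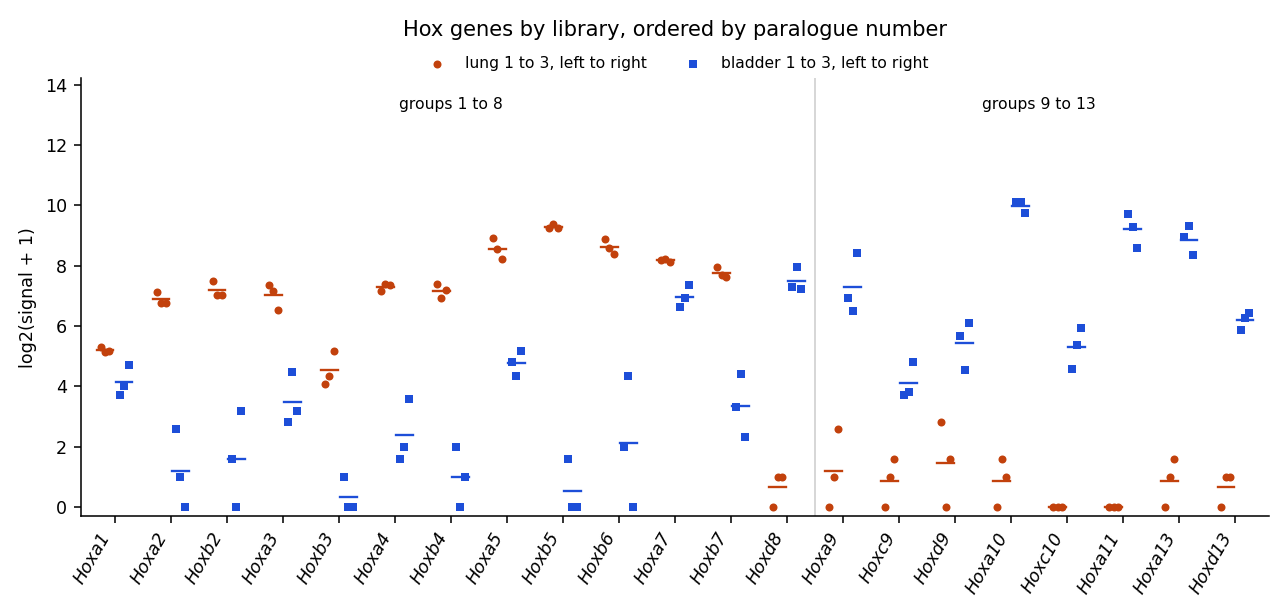
log2(signal + 1) of the 21 tested Hox genes in each library, ordered by paralogue number, with lung as circles, bladder as squares and lines at the group means. In groups 1 to 8 lung lies above bladder except in Hoxd8, and the 8 genes drawn for groups 9 to 13, which passed the filter through the bladder libraries alone, lie higher in bladder. In groups 1 to 8, 5 genes passed the filter through the lung libraries alone and Hoxd8 through the bladder libraries alone. Genes that did not reach the filter are not drawn.

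Some other patterning factors differed between the tissues. Tbx4 and Tbx5, T-box factors of lung mesenchyme, were at 2177 to 2555 and 740 to 919 in lung and at 511 to 957 and 102 to 158 in bladder, log2 differences of 1.61 (SE 0.26) and 2.66 (SE 0.28), and they were the 2 of 8 tested T-box genes higher in lung. Tbx20 and Tbx3 were higher in bladder, Tbx3 not without lung 2 or without lung 3, when the bladder count was 1. Tbx20 was at 117, 142 and 164 there and at 0, 5 and 7 in lung. It reached a signal of 10 in bladder only, so that the filter fixed its direction. Of 23 tested homeobox and related factors 9 were higher in bladder and 2, Prrx1 and Osr2, in lung. The lung count was 1 or 0 whichever library was left out, and the bladder count was 5 without lung 3. Pitx1, a homeobox factor of hindlimb and other tissues, was at 1057, 1243 and 1013 in bladder and at 3, 1 and 1 in lung (adjusted p = 5.75e-05, limma). The mean of Pitx1 in stomach was 858. Pitx1 was 1 of 2 genes of this list that reached a signal of 10 in bladder only, so that the filter fixed their direction. Isl1, a factor of the genital and bladder mesenchyme, was at 280, 584 and 228 in bladder and at 0, 11 and 5 in lung. Its mean was higher in stomach, at 478, than in bladder, at 364.

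Among 22 GATA and basic helix-loop-helix factors, 4 were higher in lung and 5 in bladder. Scx, scleraxis, a factor of tendon and other dense connective tissue, was at 677, 608 and 514 in lung and at 7, 46 and 11 in bladder, a log2 difference of 5.17 (SE 0.64, adjusted p = 0.00118, limma). Heyl and Hey2, targets of Notch, were also higher in lung, with log2 differences of 2.26 (SE 0.38) and 2.44 (SE 0.52), although Hey2 lost its call without any one of the lung libraries, as did Id4, and the lung count was then 2. Hand2, a factor of heart, limb and gut mesenchyme, was at 122, 186 and 144 in bladder and at 0, 2 and 3 in lung. It reached a signal of 10 in bladder only, so that the filter fixed its direction. Twist1, a mesenchymal factor, was at 191, 462 and 294 in bladder and at 47, 27 and 17 in lung. Of 16 forkhead factors 2 were higher in lung and 3 in bladder, a bladder count that was 1 without lung 1 and 1 without lung 2. Foxs1, a forkhead factor of mural cells, was at 933, 851 and 874 in lung and at 61, 62 and 23 in bladder.

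The adrenergic and catecholamine list had 5 of 14 tested members higher in lung and 1, the receptor Adra2a, higher in bladder. Of the 14, 1, Pnmt, reached a signal of 10 in lung only and 1, Adra2a, in bladder only, so that the filter fixed their direction. Adra1d, an alpha-1 adrenergic receptor that constricts arteries, was at 385, 379 and 456 in the lung libraries and at 9, 10 and 1 in the bladder libraries, a log2 difference of 6.07 (SE 0.71, adjusted p = 0.000997, limma). Its relative Adra1a did not pass the threshold, with 49 to 118 in lung and 0 to 64 in bladder. Beside Pnmt, the enzymes Ddc and Maob and the transporter Slc22a3 were higher in lung. Adra2a was at 213, 149 and 56 in bladder and at 0, 1 and 4 in lung.

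Of 24 tested receptors for vasoactive peptides 9 were higher in bladder and 2, Ednrb and Pth1r, in lung. Of the 24, 3, Avpr1a among them, reached a signal of 10 in bladder only, so that the filter fixed their direction. The bladder count fell to 5, 5, 5 and 4 without bladder 1, lung 1, lung 2 and lung 3, and the lung count was 4 without bladder 1, 0 without lung 1, 1 without lung 2 and 0 without lung 3. Beside Avpr1a, Bdkrb2, the bradykinin B2 receptor, was at 1123, 674 and 318 in bladder and at 1, 29 and 25 in lung, a log2 difference of -5.75 (SE 0.99, adjusted p = 0.00524, limma). Adcyap1r1, the receptor of the neuropeptide PACAP, was at 1090, 294 and 614 in bladder and at 1, 13 and 9 in lung. Ednra, the endothelin A receptor, did not pass the threshold (adjusted p = 0.0574, limma), with 2257, 2058 and 1594 in lung and 1168, 1006 and 274 in bladder, and Agtr1a, the main angiotensin receptor, overlapped with 61 to 128 in lung and 93 to 234 in bladder. Ednrb was at 1394, 1946 and 1741 in lung and at 585, 699 and 169 in bladder, and its call was lost without any one of the lung libraries.

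Of 13 tested muscarinic and purinergic receptors 5 were higher in lung and 1, P2ry1, in bladder. The lung count was 3 without any one of the lung libraries, and the bladder count was 0 in 5 of the 6 fits that left out a library, all but the one without bladder 1. P2ry14, the receptor for UDP-glucose, was at 2649, 2017 and 2126 in lung and at 163, 282 and 125 in bladder, a log2 difference of 3.64 (SE 0.31, adjusted p = 0.000246, limma). P2ry6, the receptor for UDP, was at 250, 320 and 425 in lung and at 48, 23 and 12 in bladder. Chrm2, the muscarinic M2 receptor, was at 198, 180 and 137 in lung and at 7, 1 and 9 in bladder. It reached a signal of 10 in lung only, so that the filter fixed its direction.

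Prostanoid genes went both ways. Of 13 tested prostanoid and amine genes 5 were higher in bladder and 2 in lung, a lung count that was 1 without any one of the lung libraries. Tbxa2r, the thromboxane receptor that constricts arteries, was at 961, 978 and 908 in lung and at 146, 96 and 237 in bladder, a log2 difference of 2.66 (SE 0.34, adjusted p = 0.00132, limma). Ptgs1, Ptgs2 and Ptges, enzymes of prostaglandin synthesis, were higher in bladder, and Ptgis, prostacyclin synthase, did not pass the threshold (adjusted p = 0.958, limma). Ptgs2, the inducible cyclooxygenase, was at 1878, 2488 and 753 in bladder and at 35, 69 and 43 in lung, and Ptges, the prostaglandin E synthase, was at 2417, 2023 and 1680 against 105, 165 and 165. Ptger4, a prostaglandin E receptor that raises cyclic AMP, was at 513, 429 and 362 in bladder and at 127, 121 and 92 in lung. Ptger2, another prostaglandin E receptor that raises cyclic AMP, was higher in lung, at 561, 619 and 527 against 82, 298 and 109 (adjusted p = 0.015, limma), with a call that was lost without any one of the lung libraries. Ptgs2 is also an immediate early gene, and the fibroblast and immune sums were higher in the same libraries.

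Of 28 tested potassium channel genes 6 were higher in lung and 4 in bladder; the lung count was 3, 3 and 2 without lung 1, 2 and 3, and the bladder count was 7 without bladder 3. Kcnk3, the acid-sensitive TASK-1 channel, was at 3132, 2474 and 2843 in the lung libraries and at 445, 622 and 94 in the bladder libraries. The groups did not overlap, and the log2 difference was 3.24 (SE 0.58, adjusted p = 0.00639, limma). Kcnmb1, the beta subunit of the large-conductance calcium-activated channel, was at 1659, 1755 and 1689 in lung and at 371, 394 and 141 in bladder. Kcnh2, a voltage-gated channel of the ERG family, was at 867, 1221 and 1016 in lung and at 210, 54 and 8 in bladder, with a call that was lost without lung 3. Other members of the potassium channel family were the ones high in bladder: Kcnk2, the mechanically gated TREK-1 channel, was at 453, 683 and 193 there and at 15, 13 and 5 in lung. Kcnk5 was at 204, 86 and 76 in bladder and at 0, 0 and 2 in lung, and Kcnn3, a small-conductance calcium-activated channel, was at 637, 231 and 271 against 0, 17 and 15. Kcnk5 reached a signal of 10 in bladder only, so that the filter fixed its direction.

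Of 40 tested calcium genes 6 were higher in lung and 7 in bladder. Of the 40, 2 reached a signal of 10 in lung only, so that the filter fixed their direction. The lung count was 3, 3 and 2 without lung 1, 2 and 3, and the bladder count was 3 without lung 1 and 4 without lung 3. Cacna1c, the pore of the L-type calcium channel, was at 419, 272 and 336 in lung and at 164, 88 and 67 in bladder, with a call that was lost without lung 1 or lung 3. Casq1, a calcium store protein of striated muscle, was at 150, 759 and 717 in lung and at 26, 4 and 0 in bladder. Atp2b1, a calcium pump of the plasma membrane, was higher in bladder, at 2138, 1729 and 1388 against 578, 605 and 316, as were Pkd2, Piezo1 and Piezo2, of which Piezo1 and Piezo2 are channels opened by stretch. Piezo1 was at 1034 in bladder 1 against 133 and 200 in bladder 2 and 3, and its call was lost without lung 1 or lung 3.

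**Figure D4:**
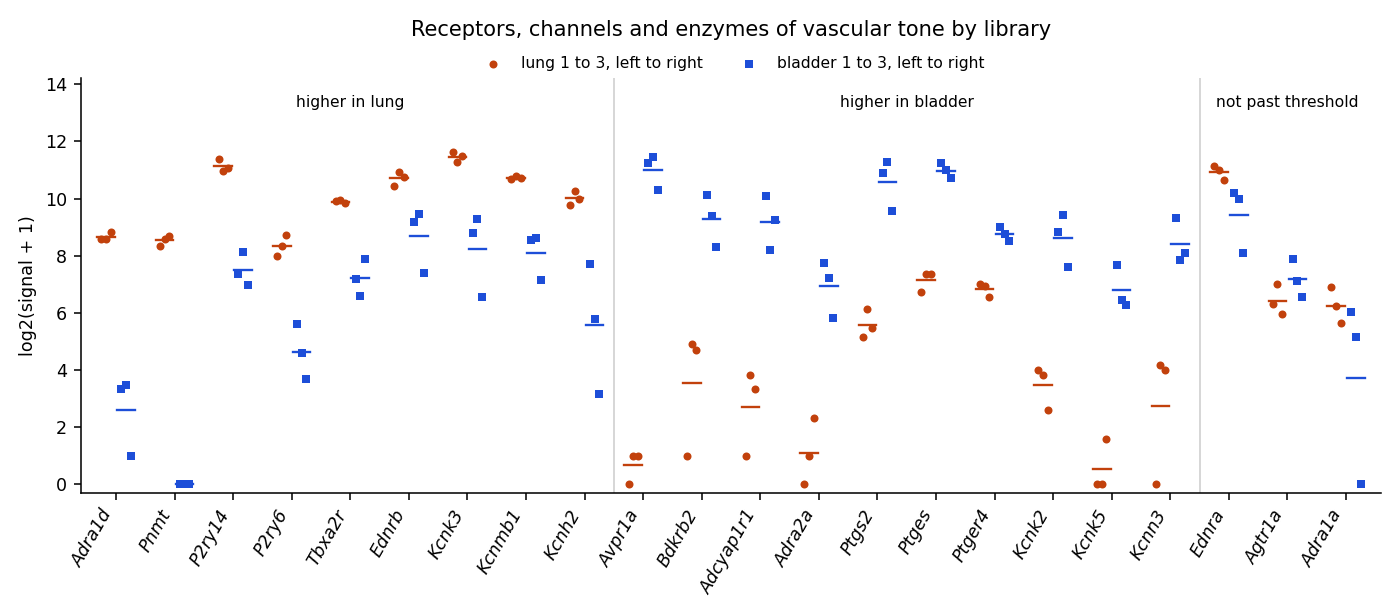
log2(signal + 1) of 22 receptor, channel and enzyme genes in each library, grouped by direction, with lung as circles, bladder as squares and lines at the group means. Pnmt has no bladder signal, Avpr1a has almost none in lung, and the groups overlap for Agtr1a and Adra1a.

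The contractile apparatus differed in a minority of its genes. Of 35 contractile genes 8 were higher in lung, with a median log2 difference of 0.64. By limma, by limma at an unadjusted p under 0.05 and by edgeR, 0 were higher in bladder. The lung count rested on single libraries: it was 15 without bladder 1, 5 without bladder 2 and 2, 3 and 2 without lung 1, 2 and 3. The bladder count was 0 in each fit that left out a library. Lmod1, leiomodin, which starts actin filaments in smooth muscle, held in every such fit, at 2168, 2375 and 2680 in lung and at 647, 556 and 330 in bladder, a log2 difference of 2.28 (SE 0.27, adjusted p = 0.000977, limma). Tagln, transgelin or SM22, was at 452, 371 and 373 in lung and at 158, 217 and 127 in bladder, a log2 difference of 1.28 (SE 0.31, adjusted p = 0.021, limma), with a call that was lost without any one of the lung libraries. Synpo2, an actin-bundling protein, was at 1128, 1273 and 1524 against 767, 324 and 369. Of the 35 genes 16 were near the read ceiling, meaning that some library held at least 0.5 rebuilt reads for each exonic base, and differences of such genes may be compressed. Cav2, Cav3 and Cavin2 were the 3 of 12 connexin and caveola genes past the threshold, all higher in lung, and Cav3, the muscle caveolin, was at 422, 301 and 290 in lung and at 20, 56 and 8 in bladder.

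Among the extracellular matrix lists, collagens had the highest share past the threshold, in the bladder direction. Of 22 fibrillar and associated collagens 16 were higher in bladder, with a median log2 difference of -2.26 beside 0.03 for all genes. By limma, by limma at an unadjusted p under 0.05 and by edgeR, 0 were higher in lung. Long genes as a class leaned the same way: of genes with at least 6000 exonic bases 13.6% were higher in bladder and 4.76% in lung, against 7.31% and 11.9% of genes under 2000 bases, and the median exonic length of these collagens was 8408 bases. With values centred within bins of exonic length, an alternative added after the data were seen, 14 of the 22 collagens were higher in bladder and 1 in lung, with a median of -1.69. Leaving out 1 library gave a bladder count of 13 to 17. The fibroblast sums, 49419 to 71897 in bladder and 22867 to 29442 in lung, moved in the same direction.

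Col12a1, a collagen that binds fibril surfaces, was at 5238, 2870 and 2585 in the bladder libraries and at 157, 151 and 73 in the lung libraries. All bladder values were over 10 times all lung values, and the log2 difference was -4.81 (SE 0.37, adjusted p = 0.000151, limma). Col11a1, a minor fibrillar collagen best known from cartilage, was at 1777, 578 and 471 in bladder and at 1, 6 and 12 in lung. The main fibril collagens differed far less: Col1a1 was at 8427, 10549 and 13785 in bladder and at 6879, 5676 and 6897 in lung, a log2 difference of -0.73 (SE 0.20), with a call that was lost without bladder 2 or any one of the lung libraries. Col3a1 did not pass (adjusted p = 0.0689, limma). Both are near the read ceiling.

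Matricellular genes, whose secreted products act on cells rather than bear load, included Thbs2 and Tnc among those higher in bladder. Thbs2, thrombospondin 2, was at 8641, 9299 and 9983 in bladder and at 481, 675 and 294 in lung, a log2 difference of -4.34 (SE 0.28, adjusted p = 6.71e-05, limma). Tnc, tenascin C, was at 8966, 4086 and 2307 in bladder and at 262, 218 and 258 in lung. Matn2, matrilin 2, was at 4461, 4490 and 7070 in bladder and at 211, 383 and 335 in lung. In all, 11 of 33 tested proteoglycan and matricellular genes were higher in bladder and 2, Ccn3 and Ccn5, in lung; the lung count was 1 without bladder 1 and without each lung library. Fn1, fibronectin, was at 10306, 3257 and 4890 in bladder and at 898, 618 and 520 in lung.

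The elastic fibre list had 11 of 22 members higher in bladder and 1, Ltbp2, in lung, but its central gene did not differ by the test. Eln, elastin, was at 6568, 4872 and 5463 in lung and at 5496, 3682 and 6415 in bladder, so the groups overlapped (adjusted p = 0.684, limma). Fbln2, fibulin 2, was at 5671, 3180 and 5438 in bladder and at 369, 712 and 453 in lung, and Lox, the enzyme that cross-links elastin and collagen, was at 4345, 2346 and 2415 against 622, 563 and 345. The bladder count of this list was 6 without lung 1 and 6 without lung 3, and its lung count was 0 in 5 of the 6 fits that left out a library, all but the one without bladder 1. Of 24 basement membrane genes 10 were higher in bladder and 2, Npnt and Smoc1, in lung. Lamc1, a laminin chain, was at 8818, 3080 and 3835 in bladder and at 434, 743 and 546 in lung, whereas Npnt, nephronectin, a ligand of integrin alpha 8, was at 2471, 2338 and 1564 in lung and at 412, 154 and 153 in bladder. Itga8, the integrin alpha 8 subunit, was higher in lung too, at 2871, 2418 and 2171 against 1406, 196 and 93, with a call that was lost without bladder 2 or any one of the lung libraries. Itga11, a collagen-binding integrin, was at 4428, 2346 and 1957 in bladder and at 45, 34 and 7 in lung.

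Matrix proteases and their inhibitors were mixed, with 9 of 26 higher in bladder and 4 in lung, and the lung count was 2 without any one of the lung libraries. Timp4, an inhibitor of matrix metalloproteinases found in heart and vessels (ENSMUSG00000030317), was at 1744, 1396 and 1649 in the lung libraries and at 32, 22 and 34 in the bladder libraries. The values within each tissue were close together, and the log2 difference was 5.74 (SE 0.31, adjusted p = 4.81e-05, limma). Adamts8, a protease that cuts proteoglycans, was at 861, 1166 and 1020 in lung and at 225, 93 and 56 in bladder. Mmp2, Mmp14, Adamts2, Adamts4 and Adamts9 were higher in bladder, by log2 differences of -1.01 to -3.50.

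**Figure D5:**
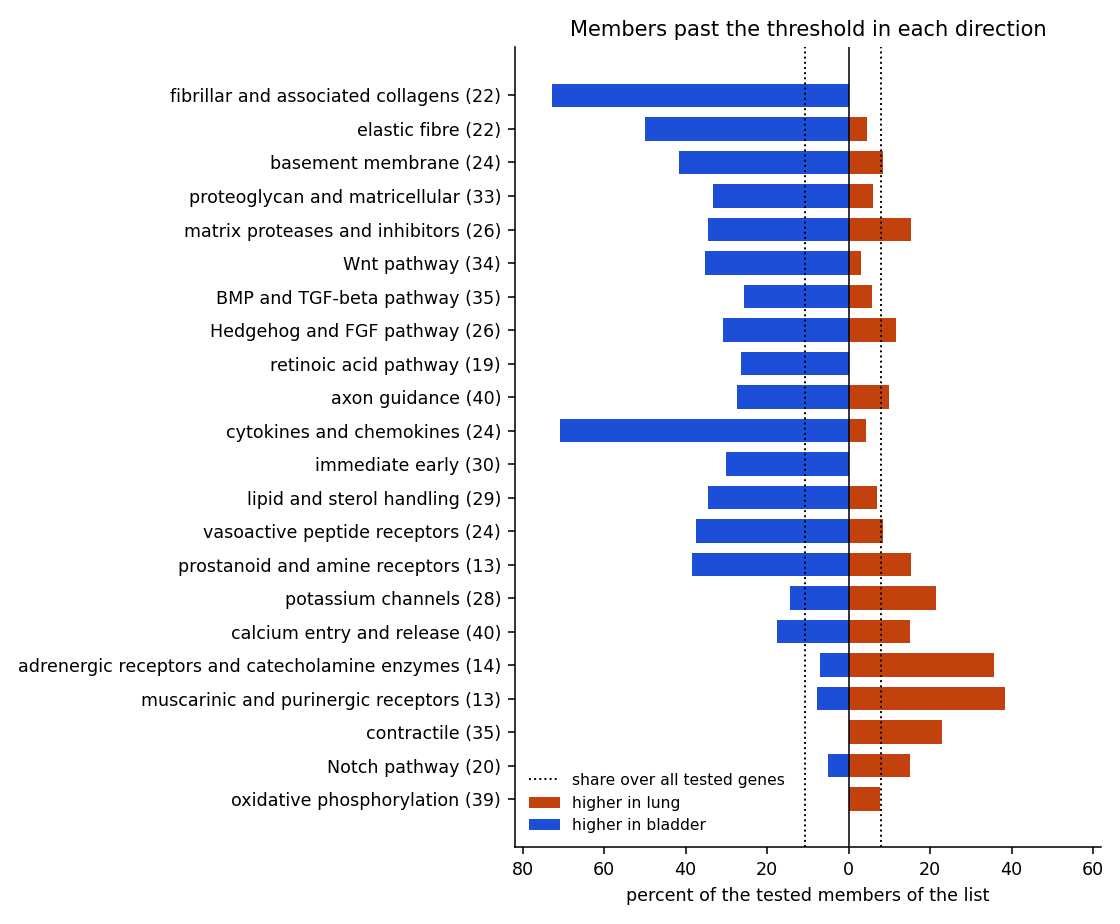
Share of the tested members of 22 gene lists that were higher in lung (right) or in bladder (left) at a limma adjusted p under 0.05, with the number tested in parentheses and dotted lines at the shares over all tested genes, 7.87% and 10.6%. Collagens and cytokines reach farthest to the left, and muscarinic and purinergic and adrenergic lists reach farthest to the right.

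Of 34 tested Wnt genes 12 were higher in bladder and 1 in lung, beside 10.6% and 7.87% of all genes. Lgr6, a receptor of R-spondins that strengthens Wnt signalling, was at 827, 1544 and 1244 in lung and at 26, 33 and 32 in bladder, a log2 difference of 5.23 (SE 0.35, adjusted p = 7.91e-05, limma). Wnt2, a ligand, was at 1742, 2050 and 2515 in bladder and at 40, 23 and 59 in lung, a log2 difference of -5.74 (SE 0.37, adjusted p = 6.71e-05, limma). Secreted Wnt inhibitors were high in the same bladder libraries: Dkk2 was at 1851, 3127 and 1312 there and at 17, 40 and 5 in lung, and Frzb was at 502, 636 and 800 against 0, 14 and 2. Sfrp1, Sfrp4 and Notum, further inhibitors, were higher in bladder too, by log2 differences of -3.92, -3.12 and -2.08, so ligand and these inhibitors moved in the same direction. Sost, an inhibitor outside this list, was higher in lung. The 1 list member higher in lung was Lgr6.

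Of 35 genes of the BMP and TGF-beta pathways 9 were higher in bladder and 2 in lung, Smad6 among them; the bladder count was 5 without lung 3, and the lung count was 1 without bladder 1, 0 without lung 1, 0 without lung 2 and 1 without lung 3. The ligands Bmp2, Bmp4, Bmp6 and Bmp7 were among those higher in bladder, and Bmp4 was at 1753, 2188 and 2605 there and at 666, 471 and 282 in lung. Of 26 Hedgehog and FGF genes 8 were higher in bladder and 3 in lung; the bladder count was 5 without lung 1 and 5 without lung 3, and the lung count was 1 without any one of the lung libraries. Gli1 and Ptch1, targets of Hedgehog signalling, were at 313 to 765 and 587 to 1969 in bladder and at 91 to 109 and 167 to 214 in lung. Of 19 retinoic acid genes 5 were higher in bladder, a count that was 3 without any one of the lung libraries. Aldh1a3, an enzyme that makes retinoic acid, was at 1479, 432 and 1115 in bladder and at 64, 106 and 20 in lung. The Notch list held 3 of 20 members higher in lung and 1 in bladder, and the lung count was 5 without bladder 1. Its bladder member was Dlk1, at 134, 239 and 299 there and at 0, 3 and 4 in lung. Dlk1 reached a signal of 10 in bladder only, so that the filter fixed its direction. Of 15 genes of the IGF axis 1 was higher in lung and 2 in bladder, and the counts were 2 and 4 without bladder 1. These small counts are not read as a result about the list, beside 7.87% and 10.6% of all tested genes. Igfbp3, a binding protein of insulin-like growth factors, was at 2459, 2780 and 2574 in lung and at 811, 526 and 227 in bladder.

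Axon guidance genes, which also steer vessels and their nerves, had 11 of 40 members higher in bladder and 4 in lung. The bladder count was 7 without bladder 1, 6 without lung 1 and 6 without lung 3. The lung count was 7 without bladder 1, 2 without bladder 3, 1 without lung 1 and 2 without lung 2 or lung 3. Ntrk3, the receptor of neurotrophin 3, was at 925, 928 and 805 in lung and at 102, 123 and 16 in bladder, a log2 difference of 3.88 (SE 0.66, adjusted p = 0.00504, limma). Efna5, Nrp2, Robo2 and Unc5b, ligands or receptors of guidance signals, were higher in bladder in every such fit.

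Cytokines and chemokines were higher in bladder in 17 of 24 tested genes and in lung in 1, and 3 of the 24 reached a signal of 10 in bladder only. Il6, interleukin 6, was at 1022, 1469 and 420 in the bladder libraries and at 18, 66 and 18 in the lung libraries, a log2 difference of -4.89 (SE 0.62, adjusted p = 0.0013, limma). Ccl2, which attracts monocytes, was at 515, 816 and 606 in bladder and at 101, 48 and 65 in lung, and Cxcl2, which attracts neutrophils, was at 186, 203 and 205 against 6, 1 and 2. Ccl19, a chemokine of lymphoid stroma, was the one higher in lung, at 152, 183 and 176 against 5, 21 and 4. Immune marker sums, 3111 to 6298 in bladder and 1430 to 1762 in lung, moved in the same direction as most of this list. Most of the lung sum was Lyz2, which overlapped between tissues.

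Immediate early genes, which respond within minutes to stimulation and to handling of cells, were higher in bladder in 9 of 30. Near the read ceiling, where differences may be compressed, were 26 of the 30. The bladder count was 15 without bladder 1 and 5 without lung 3, and it was 19 with values centred within bins of exonic length, an alternative added after the data were seen. Klf4, a factor that represses the smooth muscle programme, was at 2733, 3276 and 2894 in bladder and at 628, 507 and 408 in lung, a log2 difference of -2.54 (SE 0.21, adjusted p = 0.000231, limma). Fos, the best known member of the list, overlapped between tissues, with 2774 to 3830 in lung and 3219 to 5433 in bladder (adjusted p = 0.266, limma). Of 29 lipid and sterol genes 10 were higher in bladder and 2 in lung; the bladder count was 6 without lung 3, and the lung count was 1 without bladder 2, lung 1 or lung 2 and 0 without lung 3. Abca1 and Abcg1, cholesterol exporters, were higher in bladder by log2 differences of -3.30 (SE 0.55) and -4.40 (SE 0.67).

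The counts of the next lists are small and are not read as results about the lists. Over all tested genes, 7.87% were higher in lung and 10.6% in bladder. Of 39 oxidative phosphorylation genes 3 were higher in lung, and with limma the count was 0 without any one of the lung libraries. Near the read ceiling were 27 of the 39. Of 25 cell cycle genes 3 were higher in bladder, 1 of them without bladder 2, and of 34 interferon and antigen presentation genes 2 were, a count that ran from 0 without lung 2 to 5 without bladder 3. Of 18 clock genes 1 was higher in lung and 2 in bladder; the lung count was 2 without bladder 1, and the bladder count was 5 without bladder 2 and 1 in the other 5 fits that left out a library. Hlf, a clock-controlled factor, was the lung member, at 242, 491 and 337 against 76, 35 and 34, and times of day of collection are not given in the sources used here.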

How the data were processed

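Up to 10 ng of total RNA from sorted cells entered SMART-Seq v4, which copies whole transcripts, per the labels' protocols. The submitters' processing notes name, without saying what each did, DESeq, DESeq2 1.36.0, featureCounts 2.0.4, Picard 3.0.0, STAR 2.7.10a and Trimmomatic 0.39, and the build mm39. In the table of 28099 genes that the authors deposited, values are a signal: they are whole numbers, and their spacing shows that each library had been scaled. Dividing by the worth of 1 read, found from their spacing, gave rebuilt reads. These are within 1 read in lung 1 to 3 and bladder 1 and 2 and were used for depth and alternatives only. Exonic lengths came from GENCODE M21, matched by gene identifier for 96.2% of genes.

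Groups followed the tissue labels. Because the values are not raw counts, limma-trend (limma 3.58.1, R 4.3.3) was run on log2(signal + 1) of the 6 libraries for the 13875 genes that reached a signal of 10 in 3 or more libraries, two-sided, with Benjamini-Hochberg adjusted p under 0.05 over all of them. Differences are given on this scale, which shrinks those of weakly expressed genes. Genes of at least 0.5 reads per exonic base in some library, 1692 of those tested and 509 of those past the threshold, were marked as near the read ceiling. edgeR 4.0.16 and DESeq2 1.42.0 on rebuilt reads, other scalings, filters, pseudocounts, library sets and a replicate block were alternatives. The limma script was tested on simulated data.

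The rule took the 12 genes in each direction with the widest difference, groups that do not overlap, a mean of at least 100 in the higher tissue and calls in at least 5 of 6 fits that leave out a library. It also took 8 in each direction with a mean of at least 100 in both tissues and, in each list described, up to 6 called members of widest difference and the 2 of highest mean. Acta2, Cspg4, Myh11, Tagln and Myl9 were always named. The text names 28 further genes, chosen after their values were seen, and some genes that the rule took are not reported here. Members and gene lists were chosen with earlier results of these data known. Sequences are RefSeq's.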

Additional observations from a re-analysis of the deposited data

How the results depend on the processing

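The counts of 1092 genes higher in lung and 1470 higher in bladder stayed within 1.5 times under both other pseudocounts, both other filters, both other scalings, array weights, the read ceiling, edgeR and DESeq2. Fitting all 22 libraries together gave 798 and 846, and fitting 18, without aorta and heart 3, gave 2395 and 2443. Leaving out 1 library gave 361 to 1337 in lung and 718 to 1541 in bladder, lowest without lung 3; the cause was not tested, beyond fewer samples entering the fit. No scaling moved the lung share of calls, 42.6%, by over 10 percentage points, but it was 29.0% without lung 2. With the replicate number as a block the counts were 884 and 1329. Deviations of same-numbered libraries correlated at -0.085, -0.05 and 0.006, and those of differently numbered libraries at -0.043 to 0.076. No pairing by number was seen. Since these are deviations from means of 3 libraries and may be technical, they cannot decide whether equal numbers mark a shared animal.

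For 158 named genes, 3084 values were recomputed, 3077 with the same sign. The 7 reversals were all in genes not past the threshold. The log2 fold change of Cspg4 was -0.02 with edgeR and -0.01 with DESeq2, and between -0.30 without bladder 3 and 2.52 without bladder 1. The log2 fold change of Acta2 was -0.29 with values centred by exonic length. The log2 fold change of Eln ran from -0.09 without bladder 2 to 0.31 without bladder 3. The log2 fold change of Ptgis ran from -0.19 without bladder 1 to 0.17 without bladder 3. On simulated counts of 13875 genes for this comparison, 14% of 2-fold and 92% of 8-fold changes were recovered. The changed genes, 100 for each fold, were drawn from genes well above the lowest signal tested. Recovery at low signal was not measured.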

Other observations

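Of 15 tested genes of relaxation through cyclic GMP, the messenger that nitric oxide and natriuretic peptides raise in arterial muscle, 2 were higher in lung and 2 in bladder. Beside 7.87% and 10.6% of all tested genes, these small counts are not read as a result about the list. Gucy1b1, a subunit of the nitric oxide receptor, was at 1467, 1446 and 1601 in lung and at 922, 598 and 673 in bladder, a log2 difference of 1.06 (SE 0.22, adjusted p = 0.0106, limma) that lost its call without lung 3. Pde3b, a phosphodiesterase that cyclic GMP inhibits, was at 1069, 387 and 270 in bladder and at 13, 42 and 41 in lung, a log2 difference of -4.04 (SE 0.63, adjusted p = 0.00354, limma), and its 3 bladder values lay above all lung values. Npr2, the receptor of C-type natriuretic peptide, was at 1742, 712 and 794 in bladder and at 403, 526 and 381 in lung, with a call that was lost without any one of the lung libraries. The lung count was 7 without bladder 1 and 1 without lung 3, and the bladder count was 1 without any one of the lung libraries.

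Esr1, the oestrogen receptor alpha, was at 459, 575 and 553 in lung and at 363, 256 and 180 in bladder (adjusted p = 0.0453, limma), with a call that held only without bladder 1 among the 6 fits that left out a library. Mesothelium markers were low in both tissues, with summed signals of 205 to 482 in lung and 644 to 2707 in bladder. Of 8 tested, 4 were higher in bladder and 1, Calb2, in lung. The bladder count was 2 without bladder 2, 2 without bladder 3, 1 without lung 1 and 1 without lung 3, and the lung count was 0 without lung 3. Calb2 reached a signal of 10 in lung only and Wt1 in bladder only, so that the filter fixed their direction. Upk3b, 1 of the 4, is also on the urothelium list, and Krt19, of this list, is also on the pan-epithelium list. In bladder 3, which had the highest urothelium sum, Upk3b was at 584 and Krt19 at 1095. Wt1, a factor of mesothelium, was at 51, 101 and 102 in bladder and at 0, 1 and 5 in lung.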
